A study of Pinctada fucata with 15 samples.

Results

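The data compare D-shaped larvae (48 h after fertilization) with trochophore larvae (17 h) of the pearl oyster Pinctada fucata. Samples were chosen by their stage labels, which gave 6 of the 15 arrays of the series, 3 for D-shaped larvae and 3 for trochophores. Each array held labelled RNA of 1 pool of whole larvae on a single-colour (Cy3) Agilent design. The other 9 arrays held fertilized eggs (0 h), umbonal larvae (14 days) and juveniles (35 days), with 3 pools each, and are used here only to place a probe in the whole series. All animals came from normal culture without treatment. The larvae were raised on algae, in a small aquarium for the first days and later in a 20-L tank. A pool was taken when most larvae under the microscope had reached the stage, so a pool can hold some larvae of a neighbouring stage. The probes were designed from a transcriptome of adult mantle, the tissue that lays down the shell, so that larval genes silent in adult mantle are not measured. In pools of whole larvae, fewer cells of a type and less RNA per cell cannot be told apart. The labels do not say whether the pools of a stage came from separate spawnings, and p-values then measure only the spread between these pools.

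A trochophore is a ciliated, swimming larva in which the shell field, a patch of ectoderm, sinks in and starts to secrete an organic cover. A D-shaped larva carries the first hinged pair of larval valves, with a straight hinge line that gives the stage its name, and it swims and feeds with a ciliated velum and closes its valves with muscle. Shell is built by secretion of an organic framework, in which chitin and silk-like proteins are main parts, followed by deposition of calcium carbonate. Oxidizing enzymes such as tyrosinases and peroxidases can cross-link proteins of the outer organic layer. In adults, the prismatic and nacreous layers contain matrix proteins such as shematrins, lysine-rich KRMPs, nacrein and Pif.

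Each array held 61657 probe spots for 58883 probes, of which 58583 were designed from unigenes and 300 from GenBank sequences. Outlier spots numbered 20 to 50 on the D-shaped arrays and 22 to 37 on the trochophore arrays and were left out, and no spot was saturated. The scanner software flagged as well above background 74.6%, 70.4% and 86.1% on the D-shaped arrays and 68.2%, 61.8% and 70.3% on the trochophore arrays, as shares of the probe spots. D-shaped replicate 3 lay on slide 2 with the umbonal and juvenile arrays, and the other 5 arrays lay on slide 1 with the eggs. Across probes, the log2 signals of D-shaped arrays correlated with each other at r between 0.973 and 0.987, those of trochophore arrays at 0.972 to 0.982, and those of a D-shaped with a trochophore array at 0.885 to 0.905. These correlations are across probes, which are not independent replicates. The median SD between pools was 0.26 (log2) in D-shaped larvae and 0.22 in trochophores. Of 42195 probes, 3270 differed by at least 2-fold between D-shaped replicate 3 and the mean of the other D-shaped replicates, against 938 between replicates 1 and 2.

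Probes changed between the stages in nearly equal numbers each way. Probes entered the test if every array of D-shaped larvae, or every array of trochophores, read them well above background, and they were called if limma gave a Benjamini-Hochberg adjusted p below 0.05 and the change was at least 2-fold. Of 42195 tested probes, 14129 (33.5%) were called, with 7109 (16.8%) higher and 7020 (16.6%) lower in D-shaped larvae. The 3 D-shaped values did not overlap the 3 trochophore values for 25798 probes (61.1%). The balance of directions depended on the filter and on the scaling of the arrays. With only probes well above background on every array of both stages, 3638 were called higher and 5777 lower. With quantile normalization the median change of the tested probes was -0.16 (log2), and with scaling on the 8 spike-in control RNAs it was 0.43, with 12066 probes higher and 2435 lower. Changes are given relative to the bulk of the probes, with quantile normalization, unless another scaling is named.

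The 2 directions differed in fitted size. Between 2-fold and 4-fold, 3086 probes were higher and 5474 lower in D-shaped larvae. Between 4-fold and 8-fold, the numbers were 1715 higher and 1173 lower, and between 8-fold and 32-fold 1666 higher and 344 lower. At 32-fold or more, 642 probes were higher and 29 lower. These classes include probes with a stage above background on no array, whose fold is not measured. With such folds taken as lower bounds, 6183 probes were called higher and 7020 lower, and the size classes were not counted again. In a fit of slide 1 alone, which leaves out D-shaped replicate 3, 6892 probes were higher and 7160 lower.

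**Figure D1:**
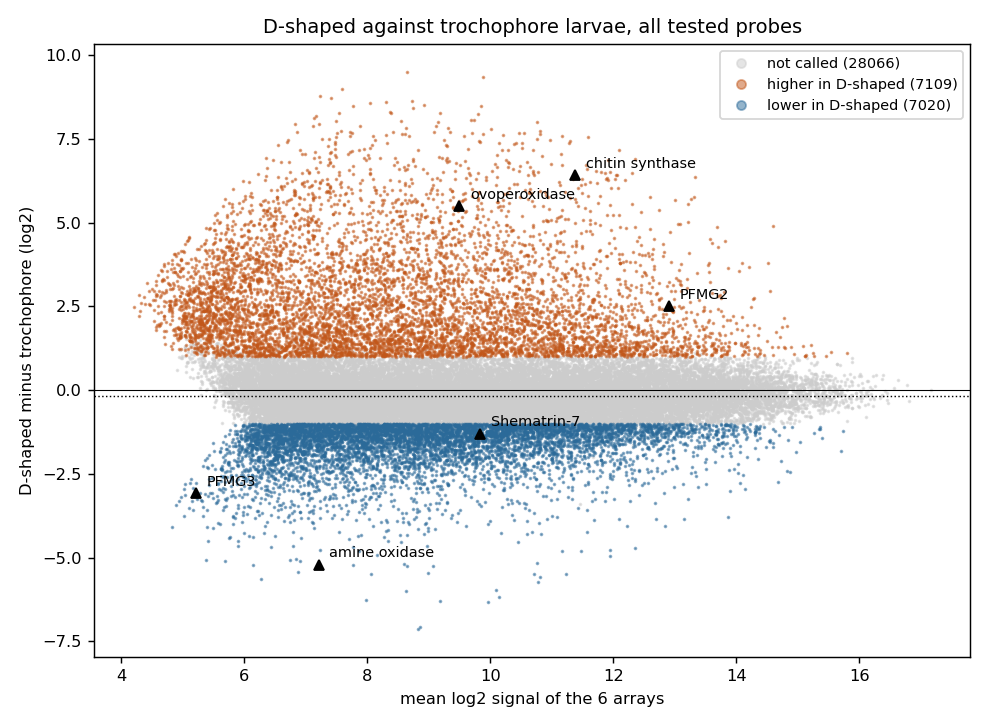
Each point is 1 of the 42195 tested probes, with the mean log2 signal of the 6 arrays on the horizontal axis and the change (D-shaped minus trochophore, log2) on the vertical axis. Orange points were called higher and blue points lower, the dotted line is the median of -0.16, triangles mark named probes, and the orange points reach farther from 0 than the blue ones.

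Many probes passed from background to signal, and few went the other way. There were 2714 probes well above background on all 3 D-shaped arrays and on no trochophore array, of which 2250 were called higher. The reverse held for 55 probes, all 55 called lower. A further 34149 probes were well above background on all 6 arrays and 7516 on none. The lowest log2 signal that counted as well above background was 5.12, 5.74 and 4.17 on the D-shaped arrays and 5.86, 6.56 and 5.70 on the trochophore arrays, so the D-shaped arrays read lower signals, and the part of this in the counts was not tested. D-shaped replicate 3, which had the lowest limit, was the only D-shaped array above background for 6483 probes. Without it the first count was 2718, from D-shaped replicates 1 and 2, but leaving out an array can only keep or raise that count. The 55 probes had to be above background on no D-shaped array, and their count without replicate 3 was not taken. Of the 2714 probes, 2499 were well above background on all 3 umbonal arrays, 2594 on all 3 juvenile arrays and 237 on all 3 egg arrays. Of the 55 probes, 27 were well above background on all 3 egg arrays, 12 on all 3 umbonal and 28 on all 3 juvenile arrays.

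The brightest of the probes that switched on was CUST_40047, with log2 signals of 13.84, 13.41 and 14.03 in D-shaped larvae against 5.97, 6.29 and 4.84 in trochophores. The next was CUST_37005, with 13.39, 13.36 and 14.40 in D-shaped larvae against 6.07, 6.52 and 4.35 in trochophores. Since neither was well above background in trochophores, the folds are bounds, at least 206-fold higher for CUST_40047 (adjusted p = 1.8e-08) and at least 195-fold for CUST_37005 (1.4e-08). CUST_46367 was at least 164-fold higher, with D-shaped values of 13.44, 13.18 and 13.57. All 3 stayed high, at 13.57 or more in umbonal larvae and 12.11 or more in juveniles on average. No gene name was given to these probes in the tables used. In the other direction, the brightest was CUST_32715, at 4.49, 4.43 and 4.16 in D-shaped larvae against 9.51, 9.27 and 9.57 in trochophores, at least 21.7-fold lower (1.7e-09). CUST_35098 was at least 19.3-fold lower and CUST_57212 at least 17.2-fold lower. The last pair averaged 11.63 and 11.56 in eggs, above their trochophore means of 9.28 and 9.11.

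Among the shell-related probes, those for the enzyme that makes chitin rose most. Chitin synthase polymerizes N-acetylglucosamine into chitin at the cell membrane. CUST_58227 had log2 signals of 14.79, 14.76 and 14.21 in D-shaped larvae against 8.73, 7.85 and 7.94 in trochophores, 85.3-fold higher (6.41 ± 0.30, SE; adjusted p = 1.9e-09). CUST_24765 had 12.93, 12.87 and 13.39 against 7.32, 6.91 and 6.13 in trochophores, 77.4-fold higher. CUST_56685, above background on 2 of 3 trochophore arrays, was 32.0-fold higher, and CUST_39082, above background on none, at least 29.0-fold. Every D-shaped array lay at least 4 log2 units above every trochophore array for these 4 probes. The paper's text gives these probes with their rise on these arrays, so the rise is not independent of that choice. They stayed on after the D-shaped stage, with means of 13.88, 12.91, 10.55 and 9.35 in umbonal larvae for CUST_58227, CUST_24765, CUST_56685 and CUST_39082. A further 2 probes annotated as chitin synthase, chosen by the study on umbonal and juvenile arrays, were above background on none of the 6 arrays. Sugar precursors of chitin belong to the amino sugar and nucleotide sugar pathway, of which 16 of the 17 listed probes were tested and all 16 were higher. Its strongest riser, CUST_13791, also listed under lysosome, had 11.27, 11.49 and 11.04 in D-shaped larvae against 2.77, 3.18 and 3.28 in trochophores, at least 37.4-fold higher (5.0e-09). It averaged 9.30 in umbonal larvae and 3.59 in juveniles, where 1 of 3 arrays was above background. This pathway list was shortened for use here. The study listed these pathway probes because they changed on these arrays, so their count is not independent evidence of a direction.

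**Figure D2:**
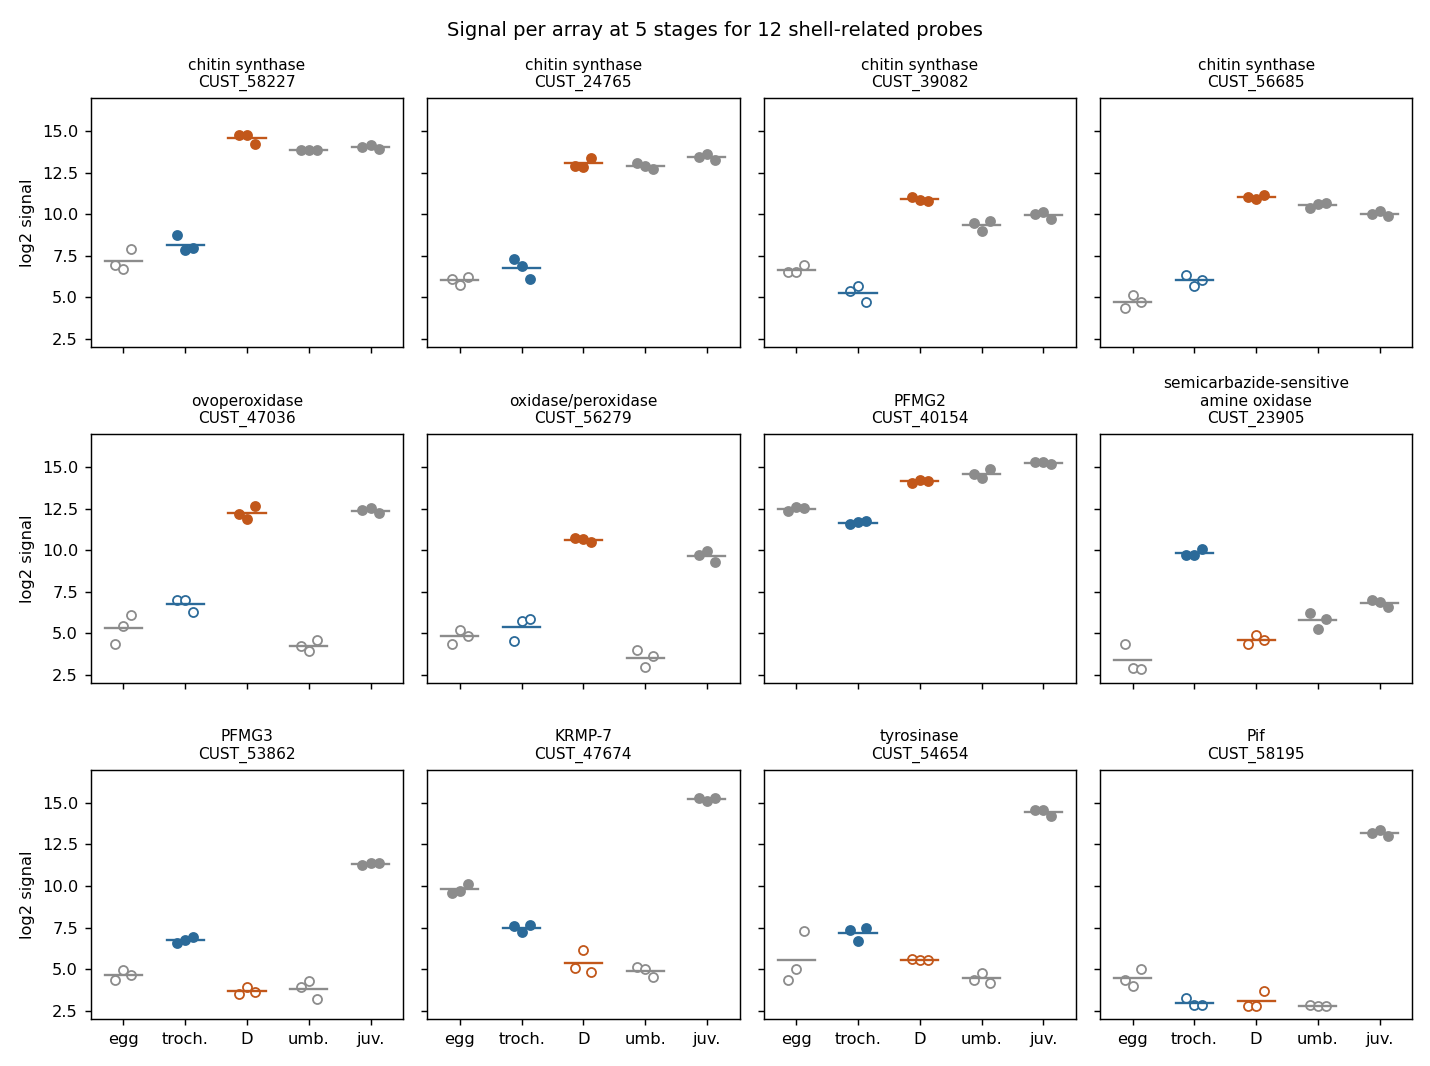
Log2 signal per array (points) and stage mean (bars) for 12 probes over the 5 stages, with D-shaped larvae in orange, trochophores in blue and the other stages in grey; open points belong to stages not well above background on all 3 arrays. The 4 chitin synthase probes are low in eggs and trochophores and high from D-shaped larvae on, while PFMG3, KRMP-7 and tyrosinase are above background in trochophores and juveniles and low between.

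Among 37 probes that the paper names for shell formation, most adult matrix proteins were dim or unchanged at the first shell. Of the 37, 20 were tested, with 5 higher (25.0%) and 5 lower (25.0%), against 16.8% and 16.6% over all tested probes, and a median change of 0.13 (log2) against -0.16. Values of the stages did not overlap for 11 of the 20 (55.0%), against 61.1% over all tested probes. With spike-in scaling the counts were 7 higher and 2 lower, with a median of 0.69. The 5 higher probes included all 4 for chitin synthase, which the paper's text gives with their rise on these arrays. The counts are thus not independent of the comparison. The paper's list of biomineralization genes alone had 16 tested, with 2 higher (12.5%) and 4 lower (25.0%), and a median of -0.1. Of the 17 of the 37 that were not tested, 11 were well above background on no D-shaped array, 16 on no trochophore array, and 16 were well above background on all 3 juvenile arrays. These included Pif, a nacre matrix protein that binds chitin, pearlin, KRMP 1, and shematrin-4, shematrin-5 and shematrin-6, glycine-rich matrix proteins.

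Besides chitin synthase, PFMG2, a mantle gene of unknown function, was called higher in that list. Its log2 signals were 14.05, 14.22 and 14.19 in D-shaped larvae against 11.55, 11.67 and 11.73 in trochophores, 5.68-fold higher (2.51 ± 0.15, SE; adjusted p = 1.7e-08). PFMG2 was high in every stage, with 12.49 in eggs, 14.61 in umbonal larvae and 15.26 in juveniles. Of the same mantle gene series, PFMG6 differed by 0.73 ± 0.34 (SE; adjusted p = 0.086), with 1 of 3 trochophore arrays above background, and PFMG8 by 0.87 ± 0.29 (0.021), under 2-fold. PFMG8 had log2 signals of 6.90, 7.56 and 8.5 in D-shaped larvae against 6.66, 7.03 and 6.67 in trochophores, so the stages overlapped and D-shaped replicate 3 was the highest. Both were called higher with the 75th-percentile shift (PFMG6 1.02, 0.029; PFMG8 1.07, 0.0039) and with spike-in scaling (1.58, 0.0027; 1.63, 0.00096). In slide 1 alone, the change of PFMG8 was 0.45 (0.15). The tested matrix proteins of the prismatic and nacreous layers that were not called had small differences, and all 10 uncalled probes of the list lay between -0.43 and 0.87 (log2). Nacrein, which has a carbonic anhydrase domain, differed by 0.12 ± 0.33 (SE), prisilkin-39, a chitin-binding framework protein, by 0.19 ± 0.36, and prismalin-14 by -0.43 ± 0.38. D-shaped replicate 3 was the lowest D-shaped array for all of these, at 6.23 against 7.23 and 7.72 for nacrein and at 5.27 against 6.68 and 6.65 for prismalin-14. The difference of prismalin-14 turned to 0.04 without that array and to 0.38 with spike-in scaling. A ferritin-like protein, of the family that stores iron, differed by 0.17 ± 0.26, and N151 by -0.32 ± 0.21, both with overlapping stages.

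A small group of matrix probes was on in trochophores and lower in D-shaped larvae. PFMG3 had log2 signals of 3.48, 3.94 and 3.60 in D-shaped larvae, none above background, against 6.54, 6.78 and 6.95 in trochophores, at least 3.35-fold lower (adjusted p = 2.5e-07). The probe annotated as KRMP-7, a lysine-rich matrix protein of Pinctada margaritifera, had 5.08, 6.16 and 4.84 in D-shaped larvae against 7.59, 7.22 and 7.65 in trochophores, 4.37-fold lower (4.2e-05). Both were separated between the stages by about 1 log2 unit or more. Shematrin-7 was 2.47-fold lower (9.19 ± 0.39 in D-shaped larvae and 10.49 ± 0.37 in trochophores, SD, n = 3 each; 0.00097), and PFMG12 2.27-fold lower (7.85 ± 0.18 and 9.03 ± 0.23; 2.9e-05). With spike-in scaling, shematrin-7 (-0.69) and PFMG12 (-0.49) were less than 2-fold lower, while PFMG3 and KRMP-7 stayed past the threshold. With normexp background, KRMP-7 (-0.98) and PFMG12 (-0.96) were less than 2-fold lower. In juveniles the means were 11.34 for PFMG3, 15.25 for KRMP-7 and 14.26 for shematrin-7, all above those of the D-shaped and trochophore stages. In eggs the means were 9.79 for KRMP-7 and 9.56 for PFMG12, above their trochophore means of 7.48 and 9.03. The egg means of shematrin-7 (8.96) and PFMG3 (4.64, with no array above background) lay below their trochophore means.

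**Figure D3:**
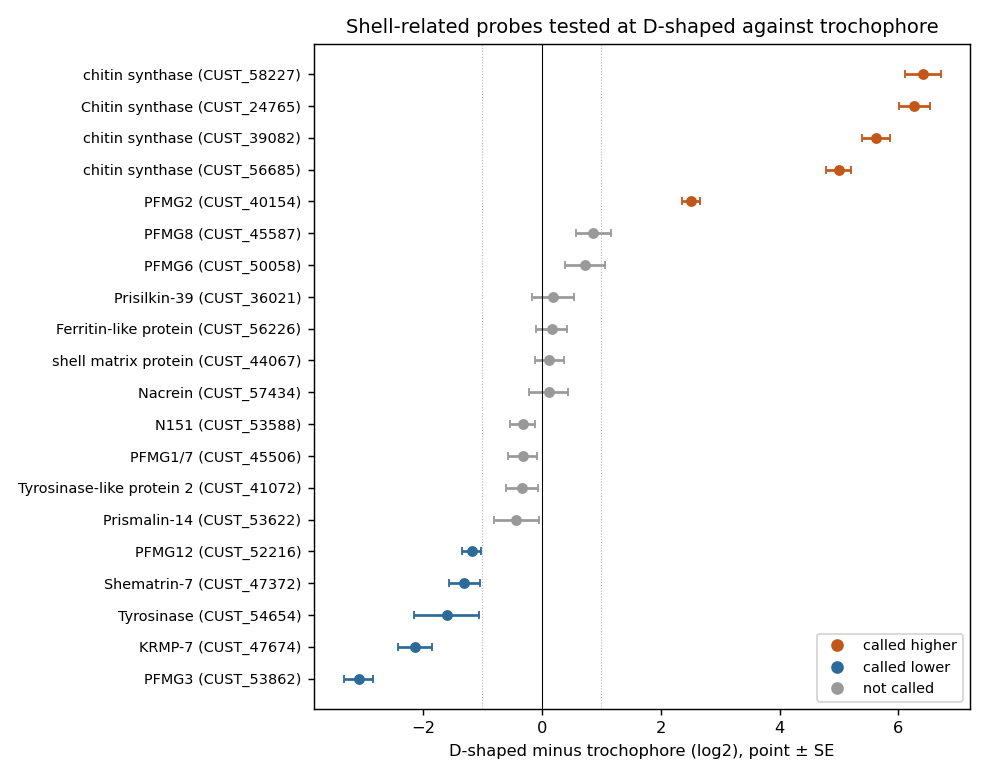
The change of the 20 tested shell-related probes (D-shaped minus trochophore, log2; points with SE), with dotted lines at 2-fold. The 4 chitin synthase probes and PFMG2 lie to the right, PFMG3, KRMP-7, tyrosinase, shematrin-7 and PFMG12 to the left, and the 10 others between.

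Enzymes that oxidize phenols and amines were called in both directions. The study listed 26 tyrosine pathway contigs because they changed on these arrays, and of these 21 were higher and 5 lower in D-shaped larvae, so the counts are not independent of the comparison. Tyrosinase, which oxidizes tyrosine to quinones, was in the lower part. CUST_54654 had log2 signals of 5.61, 5.56 and 5.55 in D-shaped larvae against 7.33, 6.71 and 7.50 in trochophores, 3.04-fold lower (adjusted p = 0.023). The D-shaped values lay close to the detection limit, with 2 of 3 arrays above background, and in the fit of slide 1 alone the adjusted p was 0.14. Its call was also lost without trochophore replicate 1 (-1.52, log2), trochophore replicate 3 (-1.44) or D-shaped replicate 2 (-1.60), and with spike-in scaling (-0.76, adjusted p = 0.23), the 75th-percentile shift (0.058) or slide as a block (0.051). Of 17 probes annotated as tyrosinase and chosen by the study for the step between umbonal larvae and juveniles, 12 were above background on none of the 6 arrays, 3 were tested and 2 were lower. The second, CUST_35887, had 5.38, 5.58 and 6.24 in D-shaped larvae against 7.10, 7.89 and 7.86 in trochophores, 3.68-fold lower (0.0028). Tyrosinase-like protein 2 differed by -0.33 ± 0.27, with overlapping stages, and by 0.49 with spike-in scaling.

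Peroxidases of the tyrosine list, chosen by the study as changed, were higher. Of 8 probes annotated as animal peroxidase and chosen on umbonal and juvenile arrays, 5 were above background on none of the 6 arrays and 3 were tested, with 2 higher, both also in the tyrosine list, and 1 not called. The probe annotated as ovoperoxidase (CUST_47036), an enzyme that in sea urchins hardens the egg envelope by joining tyrosines, had log2 signals of 12.18, 11.88 and 12.64 in D-shaped larvae against 6.98, 6.97 and 6.29 in trochophores. It was 44.9-fold higher (5.49 ± 0.37, SE; adjusted p = 4.5e-08), with 2 of 3 trochophore arrays above background. A second probe, CUST_56279, annotated as oxidase/peroxidase, had 10.73, 10.65 and 10.50 against 4.50, 5.74 and 5.87 in trochophores, at least 23-fold higher (6.1e-08). CUST_54967, annotated as melanogenic peroxidase, was at least 1.75-fold higher, with D-shaped values of 6.58, 7.36 and 6.60 near the background limit of the trochophore arrays. CUST_47036 and CUST_56279 were low again in umbonal larvae, at 4.25 and 3.51 with 1 of 3 arrays above background for each, and averaged 12.38 and 9.64 in juveniles.

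Amine oxidases, copper enzymes that turn primary amines into aldehydes, held the largest fall of the tyrosine list. Semicarbazide-sensitive amine oxidase (CUST_23905) had log2 signals of 4.32, 4.88 and 4.61 in D-shaped larvae, 1 of 3 above background, against 9.72, 9.68 and 10.05 in trochophores, 36.9-fold lower (adjusted p = 6.3e-08). Its egg mean was 3.38, with no array above background, and later means were 5.76 in umbonal larvae and 6.82 in juveniles, so the trochophores were its highest stage. Probes annotated as amiloride binding protein 1, the diamine oxidase of mammals, split. CUST_18929 was 12.6-fold lower, at 6.80 ± 0.25 in D-shaped larvae and 10.46 ± 0.10 in trochophores (SD, n = 3 each), and CUST_44222 was at least 3.89-fold higher, at 8.0 ± 0.16 in D-shaped larvae and 5.11 ± 0.23 in trochophores. The annotation does not say whether the pair stand for different genes or for pieces of related ones.

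Glutathione S-transferases, which join glutathione to reactive compounds, were 10 of the 26 listed contigs, with 9 higher and 1 lower and a median change of 2.55 (log2). A microsomal form, CUST_53245, had log2 signals of 9.85, 10.27 and 8.94 in D-shaped larvae against 4.23, 5.01 and 4.70 in trochophores, at least 12.5-fold higher (adjusted p = 1.0e-07). The pi form CUST_53080 was 13.3-fold higher, at 10.60, 10.87 and 9.98 in D-shaped larvae against 6.41, 6.94 and 6.90 in trochophores. D-shaped replicate 3 was the lowest D-shaped array for both, and still above all trochophore arrays. The exception, CUST_39791, was 11.2-fold lower, at 3.76, 3.58 and 4.44 in D-shaped larvae, 1 of 3 above background, against 6.82, 7.70 and 7.70 in trochophores. Of the probes annotated as temptin, a part of the mating attractant of the sea hare Aplysia, CUST_12898 was 3.78-fold and CUST_22403 2.13-fold higher, and CUST_29733 2.12-fold lower (0.020, and 0.15 in slide 1 alone). CUST_29733 averaged 4.56 in eggs, above background on no array, and 11.73 in trochophores, its highest stage.

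Other annotated probes came from lists that the study chose on umbonal and juvenile arrays. Of those 281 annotated probes, 115 were above background on none of the 6 arrays, 87 were tested, and 23 were higher (26.4%) and 20 lower (23%), against 16.8% and 16.6% over all. Scaled on the spike-in RNAs, the list had 37 higher and 11 lower. All 4 tested of 17 collagen probes were lower, with a median of -1.44, and none was called lower with spike-in scaling. For example, CUST_50886, annotated as a collagen chain, had log2 signals of 4.84, 5.29 and 5.03 in D-shaped larvae, 1 of 3 above background, against 6.83, 6.84 and 6.82 in trochophores, 3.44-fold lower (adjusted p = 0.00085). Of 6 calmodulin-like probes, which bind calcium, 4 were tested, with 2 higher and 1 lower. CUST_16543, annotated as calmodulin, was 5.04-fold lower, at 5.45, 5.41 and 6.43 in D-shaped larvae against 7.40, 8.48 and 8.42 in trochophores. A relative of hippocalcin, a calcium sensor of neurons in vertebrates, was at least 2.72-fold higher (CUST_57447). Of 12 protease inhibitor probes, 6 were tested, with 1 higher, the Kazal-type inhibitor CUST_54249 (at least 1.92-fold, 0.0025), and 1 lower. The lower one, CUST_53701, annotated as a tissue factor pathway inhibitor, was 3.06-fold lower (0.028), a call lost without D-shaped replicate 1 or 3 or trochophore replicate 1 or 2, at -1.64, -1.49, -1.54 and -1.57 (log2). Among 5 transcription factor probes, that annotated as the BarH-like homeobox 1 factor was 4.89-fold higher, with 1 of 3 trochophore arrays above background. The relative of the Drosophila zinc-finger factor glass, which acts in photoreceptors, was 3.86-fold lower (5.61 ± 0.31 in D-shaped larvae and 7.55 ± 0.34 in trochophores).

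Probes under terms of cell division and of RNA and protein synthesis were mostly lower in D-shaped larvae. The term lists were shortened for use here and hold up to 17 probes each. The study placed these probes under a term because they changed on these arrays. The counts therefore describe the listed probes, not all that the study placed under a term, and are not independent evidence. For DNA replication, 3 were higher and 13 lower, for cell cycle 3 higher and 12 lower, and for chromosomal part none higher and 15 lower. Over the cell division terms together, 57 probes were tested, 11 were higher and 40 lower, with a median of -1.28 (log2). CUST_22449, under chromosomal part, had log2 signals of 7.22, 7.48 and 7.08 in D-shaped larvae against 10.31, 10.27 and 10.43 in trochophores, 8.43-fold lower (adjusted p = 2.1e-08), and it was highest in eggs at 11.28. CUST_1310, listed under DNA replication and cell cycle, was 6.63-fold lower. An exception was CUST_31739, under DNA replication, 33.5-fold higher at 11.39, 11.19 and 10.94 in D-shaped larvae against 5.88, 6.28 and 6.16 in trochophores, with 1 of 3 trochophore arrays above background. The falls were modest in size, and with spike-in scaling 14 of the 57 were lower and 13 higher.

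For RNA and protein synthesis, 54 probes were tested, 12 were higher and 38 lower, with a median of -1.27. The nucleolus, where ribosomes are assembled, had 5 higher and 11 lower, the spliceosome 3 higher and 13 lower, and aminoacyl-tRNA biosynthesis, which loads amino acids onto tRNA, 2 higher and 11 lower. CUST_29161, under nucleolus, had log2 signals of 9.28, 9.19 and 9.39 in D-shaped larvae against 12.20, 12.59 and 12.52 in trochophores, 8.87-fold lower (adjusted p = 4.9e-09). CUST_13704, under spliceosome, was 6.73-fold lower. In contrast, CUST_49129, under aminoacyl-tRNA biosynthesis, was 14.2-fold higher (14.86 ± 0.07 in D-shaped larvae and 11.03 ± 0.20 in trochophores, SD, n = 3 each) and averaged 10.65 in juveniles. With spike-in scaling, 11 of the 54 were lower and 12 higher, and the nucleolus had 5 higher and 2 lower.

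Most listed probes under muscle terms moved the other way. As with cell division, the term lists here and below were shortened and hold probes chosen because they changed on these arrays, unless another choice is named. Contractile fiber had 10 higher and none lower of 11 tested, and sarcomere, the unit of striated muscle, 9 higher and none lower of 10. CUST_40413, listed under contractile fiber and sarcomere, had log2 signals of 13.76, 13.80 and 13.50 in D-shaped larvae against 6.75, 7.24 and 6.64 in trochophores, 112-fold higher (6.81 ± 0.28, SE; adjusted p = 5.7e-10). It stayed at 13.83 in umbonal larvae and 14.25 in juveniles. Cardiac muscle contraction, a pathway that also holds respiratory chain parts, had 8 higher and 8 lower.

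Of 17 listed receptors and ligands of neuroactive signalling, 15 were tested, with 14 higher and none lower, and 7 were above background on all 3 D-shaped arrays and no trochophore array. CUST_20733 of this list had log2 signals of 11.06, 10.90 and 10.91 in D-shaped larvae against 5.93, 5.88 and 5.84 in trochophores, 33.6-fold higher (3.7e-10), with 1 of 3 trochophore arrays above background. Synapse part had 10 higher and 2 lower. Its strongest riser, CUST_10046, had 11.68, 11.67 and 11.53 in D-shaped larvae against 2.89, 2.82 and 2.83 in trochophores, at least 48.1-fold higher (9.8e-11). It averaged 10.76 in umbonal larvae and 7.57 in juveniles. CUST_23837, also under synapse part, was 4.29-fold lower and was highest in eggs, at 10.95. Axon guidance, the steering of growing nerve processes, had 10 higher and 6 lower. Under this term, CUST_30299 was at least 11.3-fold higher and CUST_1533 6.20-fold lower, the latter with 1 of 3 D-shaped arrays above background. Neuron projection had 3 higher and 6 lower, and 5 higher and 1 lower with spike-in scaling.

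Listed probes of energy and detoxification terms were higher in part. Oxidative phosphorylation, the respiratory chain, had 10 higher and none lower of 11 tested, with a median of 1.29 (log2), while the list for mitochondrial part had 5 higher and 9 lower, and 6 higher and 2 lower with spike-in scaling. Glycolysis had 7 higher and 6 lower, with CUST_43294 at least 11.1-fold higher. Metabolism of xenobiotics by cytochrome P450 had 15 higher and none lower, arachidonic acid and retinol metabolism 15 higher and 1 lower each, glutathione metabolism 14 higher and 2 lower, and lysosome 11 higher and 3 lower. CUST_12476, under glutathione metabolism, had log2 signals of 10.29, 10.34 and 10.62 in D-shaped larvae against 3.61, 5.10 and 4.42 in trochophores, at least 20.8-fold higher (adjusted p = 2.1e-08). CUST_243, shared by the P450, arachidonic acid and retinol lists, was at least 9.62-fold higher. D-shaped replicate 3 was its highest array at 10.01, against 8.98 and 8.93 in the other D-shaped replicates, and trochophores were at 4.89, 4.85 and 4.70. Nitrogen metabolism, a pathway that includes carbonic anhydrases, had 13 higher and 4 lower. CUST_26259 of this list had 12.03, 11.40 and 11.92 in D-shaped larvae against 3.33, 2.99 and 2.84 in trochophores, at least 53.7-fold higher (6.7e-11), and CUST_31632 was 16-fold lower (6.94 ± 0.31 and 10.94 ± 0.17).

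Developmental signals were mixed. Hedgehog signalling had 12 higher and 4 lower, Notch 5 higher and 7 lower, TGF-beta 7 higher and 9 lower, and MAPK 5 higher and 9 lower. With spike-in scaling the excess of falls turned over for Notch (5 higher, 2 lower) and TGF-beta (7 higher, 3 lower). The largest changes in the TGF-beta list were CUST_32340, 20.2-fold higher at 11.90, 11.84 and 11.31 in D-shaped larvae against 7.51, 7.32 and 7.21 in trochophores, and CUST_14598, 12.8-fold lower with 1 of 3 D-shaped arrays above background. Smads carry TGF-beta and BMP signals to the nucleus. Pf-smad4, the shared partner, had log2 signals of 7.16, 7.65 and 6.59 in D-shaped larvae against 8.96, 8.58 and 8.93 in trochophores, 3.22-fold lower (adjusted p = 0.00039), and D-shaped replicate 3 was its lowest array. With spike-in scaling its change was -0.98. Pf-smad5, of the BMP branch, differed by 0.07 ± 0.23 (SE), with overlapping stages, and Pf-smad3 was not tested. In the Hedgehog list, CUST_11703 was at least 5.61-fold higher and CUST_28590 11.2-fold lower. The Notch list held CUST_17912, 7.43-fold higher with 1 of 3 trochophore arrays above background, and CUST_26114, 5.91-fold lower. In the MAPK list, CUST_14271 was at least 10.3-fold higher and CUST_16083 at least 4.50-fold lower. In the Wnt list, 6 were higher and 10 lower, and 6 higher and 3 lower with spike-in scaling. Its largest riser CUST_17298 was at least 7.44-fold higher (1.5e-09), at 9.11, 9.15 and 8.54 in D-shaped larvae against 3.62, 4.24 and 4.28 in trochophores. Its largest faller CUST_17538 was at least 3.80-fold lower, at 4.30, 2.88 and 3.80 in D-shaped larvae against 7.02, 6.96 and 6.83 in trochophores. Calcium signalling had 15 higher and 2 lower of 17, with CUST_17587 at least 35.7-fold higher.

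Cell contacts and matrix sugars were also mixed. ECM-receptor interaction had 10 higher and 6 lower, and cell-cell junction 3 higher and 6 lower. CUST_50293, under cell-cell junction, was 21.1-fold lower, with log2 signals of 6.24, 5.90 and 6.10 in D-shaped larvae against 10.65, 10.27 and 10.51 in trochophores (adjusted p = 1.8e-10). CUST_42693 of the same list was at least 1.89-fold higher. Of the ECM-receptor list, CUST_25503 was 7.36-fold lower and CUST_14000 at least 3.49-fold higher. Heparan sulfate biosynthesis had 3 higher and 4 lower, and 4 higher and 2 lower with spike-in scaling, with CUST_53163 at least 9.96-fold lower and CUST_31456 5.62-fold higher. Some microtubule probes were listed by the study for the step between umbonal larvae and juveniles, and so not for their change here. Of 15 tested, none was higher and 1 lower (3 higher and none lower with spike-in scaling). Of the lists chosen in the same way, synapse part had 4 higher and 2 lower of 7, neuron projection 1 and 2 of 6, and cell projection part 1 and 1 of 13. Extracellular matrix had 3 higher and 1 lower of 5, and cell-cell junction 3 and 3 of 7. Ion channel complex and condensed chromosome each had 1 probe tested, which was higher. Over all tested probes, 16.8% were higher and 16.6% lower.

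**Figure D4:**
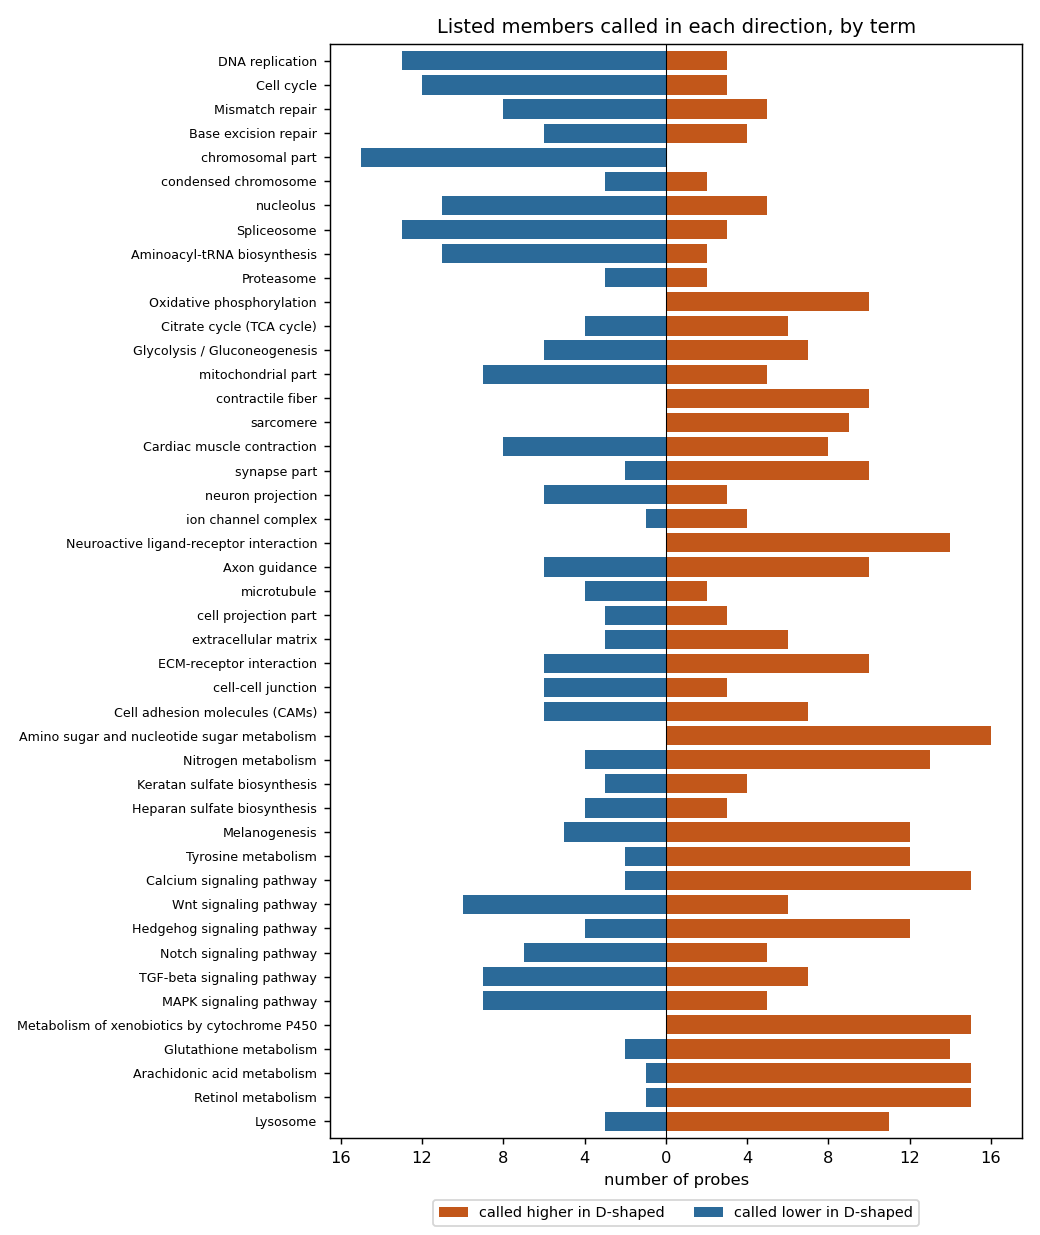
Number of listed probes called higher (right, orange) and lower (left, blue) in D-shaped larvae for each term, by probes that the study listed as changed between these stages. The lists were shortened for use here. Chromosomal part has 15 lower and none higher, and amino sugar metabolism 16 higher and none lower.

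Among probes that all 6 arrays read well above background, the largest rises were unnamed unigenes, led by CUST_45175 (214-fold higher) and CUST_55538 (200-fold). CUST_52935 had log2 signals of 15.02, 14.88 and 14.95 in D-shaped larvae against 8.41, 7.54 and 6.18 in trochophores, 191-fold higher (adjusted p = 2.0e-07). CUST_48204 had 14.48, 14.20 and 14.86 against 7.29, 7.49 and 6.26 in trochophores, 181-fold higher (2.7e-10). CUST_41011 was 189-fold higher. For 4 of the 5 largest rises, trochophore replicate 1 was the highest and replicate 3 the lowest of the trochophore arrays, with 9.15, 7.88 and 6.39 for CUST_41011. The largest falls were those of CUST_4625 (79.7-fold lower) and CUST_49990 (78.8-fold). The next, CUST_26220, had 7.26, 7.06 and 6.83 in D-shaped larvae against 13.20, 13.46 and 13.06 in trochophores, 73.0-fold lower (4.1e-10), and was highest in eggs at 15.67. CUST_24604 was 62.1-fold lower and CUST_15326 52.9-fold lower, at 7.93, 8.26 and 7.57 in D-shaped larvae against 13.81, 13.48 and 13.65 in trochophores. Both were above background on no egg array and at 5.53 or less in umbonal larvae, so trochophores were their highest stage.

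Probes designed from GenBank sequences, for which no gene names were at hand, had 229 of 300 tested, 73 higher (31.9%) and 31 lower (13.5%), against 16.8% and 16.6% over all tested probes. The GenBank-designed probe CUST_4 had log2 signals of 14.64, 14.66 and 14.81 in D-shaped larvae against 8.13, 7.43 and 6.18 in trochophores, 176-fold higher (adjusted p = 2.5e-08). CUST_103 of the same design was 118-fold and CUST_15 108-fold higher, CUST_15 with 2 of 3 trochophore arrays above background. The largest falls were CUST_132 (44.3-fold lower), CUST_76 (38.1-fold) and CUST_108 (36.3-fold). CUST_108 had 4.46, 4.42 and 4.93 in D-shaped larvae, 1 of 3 above background, against 9.85, 9.71 and 9.79 in trochophores. CUST_132 spread more, at 6.12, 5.05 and 7.57 in D-shaped larvae against 11.44, 12.12 and 11.60 in trochophores, with D-shaped replicate 3 the highest and still below all trochophore arrays.

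The change at the first shell was next set against that between umbonal larvae and juveniles, who build the shell layers of the adult type. The 2 changes share no array, and their difference was tested in the same fit, as (D-shaped minus trochophore) minus (juvenile minus umbonal). Of 52768 probes, 22655 (42.9%) differed between the 2 steps, 11552 (21.9%) with the larger value at the D-shaped step and 11103 (21.0%) with the smaller. Probes entered this test if every array of any stage of the 2 steps read them well above background. Of the 37 shell-related probes 36 were tested, with 6 larger and 28 smaller. Of the 17 not tested at the D-shaped step, 16 were above background on all 3 juvenile arrays and so entered through the later step. For these a smaller value was largely set by that rule, so the 28 are not evidence about the list. For 1 of the 6 and 17 of the 28, at least 1 stage was above background on no array, so the size of the difference is not measured and none is given. Pif was above background on all 3 juvenile arrays and on no D-shaped, trochophore or umbonal array, and PFMG3 on no D-shaped array. The 4 chitin synthase probes of the list were in the first group, as they rose at the D-shaped step and not at the juvenile step. The paper's text gives them with their rise at the D-shaped step, so their differences and adjusted p-values are not independent of that choice. The 2 other probes annotated as chitin synthase, chosen by the study for their rise in juveniles, went the other way. The difference was 6.24 (log2) for CUST_58227 (adjusted p = 8.3e-08), 5.73 for CUST_24765 and 5.52 for CUST_56685, which 2 of 3 trochophore arrays read above background. PFMG2 differed by 1.85 (8.9e-06). In the second group, the difference was -12.49 for KRMP-7 (1.9e-10) and -11.63 for tyrosinase CUST_54654 (5.9e-08), each above background on 2 of 3 D-shaped and 2 of 3 umbonal arrays, and -7.27 for shematrin-7 (5.9e-09), above background on all. N151 differed by 0.09, with an adjusted p of 0.83. Among the peroxidases, the ovoperoxidase probe rose by 5.49 at the D-shaped step and by 8.13 at the juvenile step, a difference of -2.64 (0.00082), with 2 of 3 trochophore and 1 of 3 umbonal arrays above background. CUST_56279 was above background on no trochophore array, and its difference is not given.

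Several probes were on in trochophores, low in D-shaped and umbonal larvae and high in juveniles. Of the GenBank-designed probes, CUST_132, CUST_76 and CUST_108 averaged 6.25, 6.44 and 4.60 in D-shaped larvae, against 11.72, 11.69 and 9.78 in trochophores, and 14.84, 14.81 and 13.81 in juveniles. Their differences between the steps were -16.27 (2.7e-08), -15.77 (9.0e-10) and -14.63 (7.5e-13), and 1 or 2 of the 3 D-shaped and of the 3 umbonal arrays read each of them above background. These probes were picked for the largest falls at the D-shaped step, so neither the sizes nor the adjusted p-values are independent of that choice. The study chose 5 candidate shell genes for their rise from umbonal larvae to juveniles on these arrays, and followed them by RNA interference. That part of the pattern was thus set by the choice, and 1 of the 5 shared the whole pattern. It was CUST_56635, with log2 signals of 6.47, 6.74 and 6.79 in D-shaped larvae against 9.62, 9.08 and 9.09 in trochophores, 6.03-fold lower (6.2e-06), and a mean of 13.78 in juveniles. Another candidate, CUST_51699, was at least 1.12-fold higher, at 5.84, 6.61 and 6.14 in D-shaped larvae with no trochophore array above background, CUST_18739 differed by -0.54 ± 0.18 (SE), and the other 2 were not tested.

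**Figure D5:**
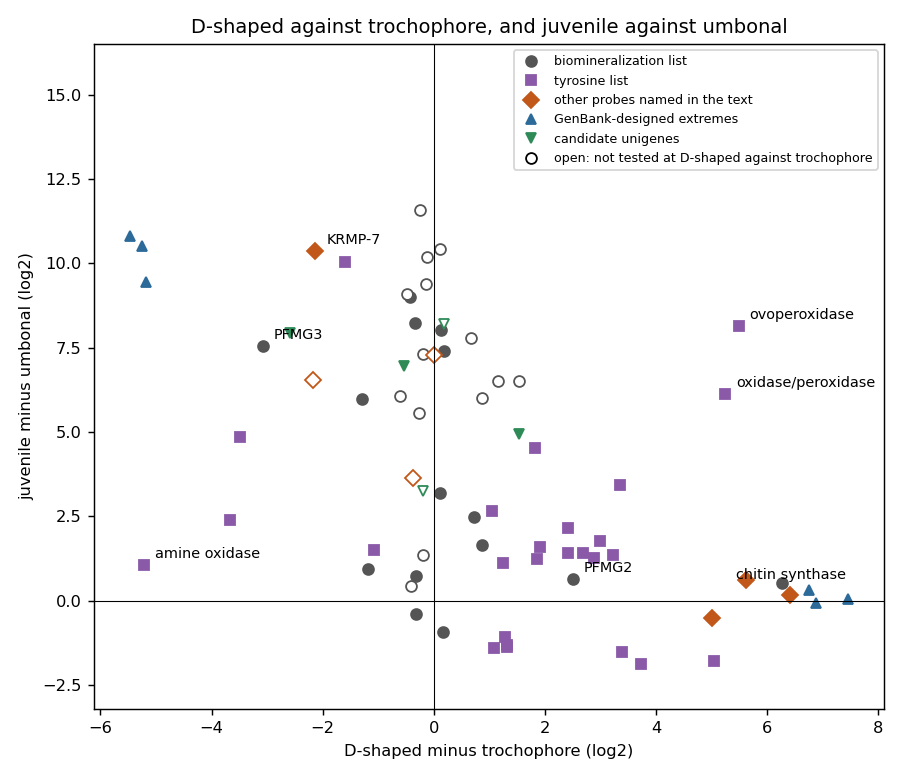
Change between trochophores and D-shaped larvae (horizontal, log2) against change between umbonal larvae and juveniles (vertical, log2) for listed probes; open symbols were not tested on the horizontal axis. Chitin synthase lies at the lower right, the peroxidases at the upper right, and PFMG3, KRMP-7 and the falling GenBank-designed probes at the upper left.

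At the juvenile step 13.4% of 52420 tested probes were higher and 15.9% lower, and among the 41847 probes tested at both steps 9.20% were higher and 16.7% lower there, while the D-shaped step had 16.9% and 16.3%. Of the same probes, 933 rose at both steps, 13.2% of the risers of the D-shaped step and 24.2% of those of the juvenile step. The 790 that fell at the D-shaped step and rose at the juvenile step were 11.6% and 20.5% of those lists. The largest overlap was of 1583 probes that rose at the D-shaped step and fell at the juvenile step, 22.4% and 22.7%, and 1139 fell at both, 16.7% and 16.3%. The D-shaped step was also set against juveniles over eggs, which shares no array with it and in which 32.4% of 52167 probes were higher and 32.8% lower. Of the probes higher in D-shaped larvae, 4763 (68.0%) were higher in juveniles than in eggs and 610 (8.71%) lower. Of the probes lower in D-shaped larvae, 4344 (63.0%) were lower in juveniles than in eggs and 1161 (16.8%) higher. The 4763 probes were 37.4% of those higher in juveniles than in eggs, and the 4344 probes 29.4% of those lower. The 610 probes were 4.13% of those lower in juveniles and the 1161 probes 9.10% of those higher.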

How the data were processed

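RNA of 15 pools (5 stages, 3 pools each) was measured on single-colour arrays, and the 6 of the D-shaped and trochophore stages were compared. Per the file headers, the intensity of each spot was made by Agilent Feature Extraction 11.5.1.1, with background subtraction and spatial detrending but no normalization between arrays. The deposited log2 table of the authors, made in GeneSpring, equals that signal minus a constant per array near its 75th percentile and served as an alternative. The files used give no counts, so the number of arrays limits the precision.

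After control and outlier spots had been removed, the spots of each probe were averaged, and the signals were floored at 1, put on the log2 scale and quantile-normalized over the 15 arrays. Probe values with no spot left on an array (198 values of 197 probes, none of a named probe) were dropped from the fit and counted as not above background. With limma 3.58.1 in R 4.3.3, 1 mean per stage was fitted to all 15 arrays, and two-sided moderated tests were adjusted by Benjamini-Hochberg over all tested probes. The permutation test of the methods (SAM) was not run. For a bound ("at least"), each array of the dimmer stage was given the probe's own signal or the lowest signal well above background on that array, whichever was higher, and the mean of these was taken from that of the brighter stage. Tables and plots were made in Python 3.11.15 with pandas 2.3.3, numpy 2.4.6 and matplotlib 3.10.9. The fit was tested on simulated data.

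Named probes were those the paper names for shell formation and the tyrosine pathway, the 5 largest rises and falls among called probes above background on all 6 arrays, the 3 brightest that switched on or off, the largest called rise and fall of each term or keyword list, and the 3 largest of the GenBank-designed probes. The members, lists and rules were chosen with earlier results of these data known. Term lists and annotations came from tables shortened for use here, so no enrichment was tested. Alternatives were a 75th-percentile shift, spike-in scaling, the authors' values, normexp background (offset 50) on the median signal, since the mean signal was not given in the files used here, no filter, a filter on every array compared, unadjusted p, fewer arrays, blocks for replicate number or slide, slide 1 alone, folds as bounds and each array left out.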

Additional observations from a re-analysis of the deposited data

How the results depend on the processing

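With only probes well above background on every array compared, 9415 probes were called, with 3638 higher and 5777 lower in D-shaped larvae. Under the same filter, 12790 differed between the D-shaped and the juvenile step. Scaling on the spike-in RNAs gave 12066 higher and 2435 lower. The other alternatives kept the number of calls within 1.5 times of 14129, at the least 10566 with normexp background and at the most 16863 with no filter on dim probes. Leaving out 1 array at a time gave 13896 to 14877 called, 6841 to 7341 higher and 6856 to 7587 lower, and 21799 to 23192 for the difference between the steps. The replicate number of the labels does not pair the arrays, since deviations from the stage means correlated at 0.07, -0.20 and 0.06 between same-numbered D-shaped and trochophore arrays. A fit with the replicate block gave 14041 called, 7083 higher and 6958 lower, and 22310 for the difference between the steps. No fit of slide 1 alone was possible for the difference between the steps, since the umbonal and juvenile arrays all lay on slide 2.

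Of 134 named values, 107 kept direction and call in every alternative in which they were tested. Alternatives that did not test a probe were not counted for it. With only probes well above background on every array compared, 59 of the values were tested, and all 59 kept direction and call. Under that filter the chitin synthase list had 2 higher in place of 4, and the tyrosine list 9 in place of 21. The sign turned only for small changes. With spike-in scaling, N151 (CUST_53588) came to 0.07, tyrosinase-like protein 2 (CUST_41072) to 0.49, prismalin-14 (CUST_53622) to 0.38 and CUST_18739 to 0.27. The ferritin-like CUST_56226 came to -0.02 with the 75th-percentile shift and with the authors' processed values, to -0.07 with slide as a block or slide 1 alone, and to between -0.12 and 0.34 with an array left out. Prismalin-14 came to 0.01 with normexp and to 0.04 with slide as a block or slide 1 alone, and ranged over -0.67 to 0.04 with an array left out. Nacrein (CUST_57434) ranged over -0.21 to 0.53 with an array left out. Pf-smad5 (CUST_158) came to -0.07 with slide as a block or slide 1 alone and to between -0.07 and 0.16 with an array left out. With normexp the difference between the steps for CUST_56279 was 0.57. The causes were not tested. A call was lost, with the direction kept, for 11 named values with normexp and 10 with spike-in scaling. The 2 calls gained with the 75th-percentile shift, the authors' values and spike-in scaling were PFMG6 and PFMG8, and PFMG8 also gained its call without D-shaped replicate 1. CUST_54654, CUST_57892, CUST_53701, CUST_57939 and CUST_29733, all lower in D-shaped larvae and with adjusted p between 0.020 and 0.046, lost their call with slide as a block and in slide 1 alone, and CUST_51699 in slide 1 alone.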
